A study of Mus musculus with 25 samples.

Results

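The genes of glucose production G6pc, Fbp1, Slc37a4 and Pck1, were followed in mouse intestine after loop surgery. The array carried 4 probes for these 4 genes, of 25697 in all, 1 probe for each gene, and all 4 were among the 11227 genes tested. The set was selected on earlier results of these same arrays, in which G6pc fell in stagnant loops of wild type mice. Every comparison that uses the wild type stagnant loops is therefore given below as a description, without a test. For G6pc, tests against sham ileum or wild type draining loops are not free of this selection either. Its fall was seen relative to those arrays, so the selection may favour high values there.

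Total RNA of 25 samples in 8 groups was measured on Illumina bead arrays, where a probe's signal is averaged over many beads. All mice were female C57Bl/6, aged 6 to 8 weeks at surgery and kept on gel diet 76A for 5 days beforehand. Surgery made a loop from 2.5 cm of ileum lying 3 cm upstream of the ileocecal valve, and the mice were killed 5 weeks later. A self-filling loop lies so that intestinal content stands in it, whereas a self-emptying loop drains. Wild type mice gave 4 groups, namely ileum (n = 3) and cecum (n = 3) after sham surgery and loops of the self-emptying (n = 4) and the self-filling (n = 3) kind, the sham mice having had a laparotomy without bowel surgery. Mice labelled IL10 knockout, lacking a cytokine that restrains inflammation, and mice labelled TLR4 knockout, lacking the receptor for bacterial lipopolysaccharide, each gave 3 self-emptying and 3 self-filling loops. The labels name no allele, knockout sham tissue was not analysed here, and no label ties a replicate to an animal of its own. The p-values below therefore cover the spread among these arrays, part of which may be technical.

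Between 12123 and 13627 probes were detected per array (detection p under 0.05), and any pair of arrays within a group had an r of 0.968 to 0.992. The Il10 probe gave a detected signal on each of the 6 arrays labelled IL10 knockout, at 5.72 to 7.72 on the log2 scale, and on none of the other 19. Its place relative to the deletion was not given in the sources used here, so the probe checks nothing about the allele, and those arrays are named by their label. The Tlr4 probe that was tested was detected on 1 of 6 TLR4 knockout arrays and on all 19 others. All TLR4 knockout arrays carry codes of a series MX and the other 19 of a series MW, so TLR4 genotype and code series cannot be told apart. Ileal enterocyte markers fell for 3 of 3 genes and large intestinal markers rose for 9 of 9 in sham cecum against sham ileum.

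Gluconeogenesis makes glucose from lactate, amino acids and glycerol. Pck1 encodes the cytosolic phosphoenolpyruvate carboxykinase that commits carbon to the pathway, Fbp1 the fructose-1,6-bisphosphatase that bypasses phosphofructokinase, Slc37a4 the transporter that carries glucose-6-phosphate into the endoplasmic reticulum, and G6pc the catalytic subunit of glucose-6-phosphatase, which releases free glucose there. Liver and kidney are the main sites, and the small intestine also expresses these enzymes, where Fbp1 and G6pc take part in turning dietary fructose into glucose.

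The start regions of G6pc, Pck1 and Fbp1 are shown because G6pc and Fbp1 fell together in the tests below while Pck1 stayed near background. Each run holds the 250 bases before the RefSeq start in GRCm38.p6, read 5′ to 3′ on the gene's strand, at chr11:101367466-101367715 (plus strand) for G6pc, chr2:173152823-173153072 (plus strand) for Pck1 and chr13:62888283-62888532 (minus strand) for Fbp1. Capitals mark matches, on either strand, to the HNF1 core GTTAAT, the cAMP response element core ACGTCA, the forkhead core TGTTT, the nuclear receptor core AGGTCA or the TATA box TATAAA.
G6pc: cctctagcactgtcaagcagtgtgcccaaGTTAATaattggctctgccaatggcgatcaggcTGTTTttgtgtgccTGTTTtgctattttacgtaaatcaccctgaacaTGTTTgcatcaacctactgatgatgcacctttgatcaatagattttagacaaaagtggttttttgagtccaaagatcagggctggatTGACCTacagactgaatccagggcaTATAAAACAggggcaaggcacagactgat
Pck1: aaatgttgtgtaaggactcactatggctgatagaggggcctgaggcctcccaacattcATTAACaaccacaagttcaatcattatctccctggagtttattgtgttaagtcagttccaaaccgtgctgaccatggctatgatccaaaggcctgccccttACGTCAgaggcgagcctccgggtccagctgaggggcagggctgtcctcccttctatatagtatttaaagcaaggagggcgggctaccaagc
Fbp1: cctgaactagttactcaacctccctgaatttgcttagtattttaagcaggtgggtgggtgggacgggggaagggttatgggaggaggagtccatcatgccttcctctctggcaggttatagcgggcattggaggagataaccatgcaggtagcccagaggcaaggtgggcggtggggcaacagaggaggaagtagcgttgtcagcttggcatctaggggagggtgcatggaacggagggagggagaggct
G6pc held 7 matches: 4 forkhead cores, 1 HNF1 core, 1 nuclear receptor core and 1 TATA box, the last overlapping a forkhead match. Pck1 held 2, an HNF1 core and a cAMP response element core, and Fbp1 held 0. The 3 start sites listed for Slc37a4 held 3, 1 and 2 matches. Of 32851 such windows in the RefSeq table, 6.43% held the HNF1 core, 6.47% the cAMP response element core, 46.4% the forkhead core, 14.02% the nuclear receptor core and 12.4% the TATA box. A match is a run of letters and not a site shown to be bound.

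G6pc spanned the widest range of the 4 genes, from 4.49 to 8.87 in normalized log2 intensity, and was detected on 19 of 25 arrays. In sham ileum its values were 8.57, 8.87 and 7.96. Self-emptying loops of wild type gave 7.01, 7.57, 6.37 and 8.65. Self-filling loops of wild type gave 5.52, 4.66 and 5.00, and the second of these was not detected. All 3 stagnant wild type loops thus lay below all 7 wild type sham ileum and draining loop arrays, which is the pattern the set was selected on.
In sham cecum G6pc measured 4.58, 4.94 and 4.60, with 1 of 3 arrays detected. In draining loops labelled IL10 knockout it measured 4.49, 4.95 and 4.77, again with 1 of 3 detected. Stagnant loops with that label gave 5.19, 5.05 and 4.80, all 3 detected. These 3 groups lay within or near the background, where the 95th percentile of undetected probes was 4.63 to 4.81 and the lowest detected probe 4.69 to 4.94.
TLR4 knockout loops did not share this low level. Draining TLR4 knockout loops gave 7.74, 6.73 and 6.08, and stagnant ones 8.80, 4.63 and 6.58, the second not detected. The 3 stagnant TLR4 knockout arrays ran from background to the level of sham ileum (SD 2.09, n = 3), the widest spread of any group for G6pc.
Ordered by mean, G6pc stood at 8.47 ± 0.46 (SD, n = 3) in sham ileum, 7.40 ± 0.97 (n = 4) in wild type draining loops, 6.85 ± 0.84 (n = 3) in TLR4 knockout draining loops, 6.67 ± 2.09 (n = 3) in TLR4 knockout stagnant loops, 5.06 ± 0.43 (n = 3) in wild type stagnant loops, 5.01 ± 0.20 (n = 3) and 4.74 ± 0.23 (n = 3) in stagnant and draining loops labelled IL10 knockout and 4.71 ± 0.20 (n = 3) in cecum. Every pair of neighbours in this order overlapped.

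Fbp1 was detected on all 25 arrays, between 4.82 and 8.59. Sham ileum gave 8.01, 8.33 and 7.57, wild type draining loops 7.83, 7.87, 7.37 and 8.04, and wild type stagnant loops 7.34, 7.79 and 7.10. These 3 groups overlapped for Fbp1, whereas for G6pc the stagnant loops lay apart from the other two. Cecum gave 4.94, 5.61 and 4.82, draining loops labelled IL10 knockout 5.83, 6.63 and 6.12, and stagnant ones 7.29, 5.98 and 5.87. TLR4 knockout draining loops gave 7.94, 7.50 and 8.07 and stagnant ones 8.59, 6.93 and 7.89. The mean was 7.97 ± 0.39 (SD, n = 3) in sham ileum, 6.19 ± 0.41 (n = 3) in draining loops labelled IL10 knockout and 5.12 ± 0.42 (n = 3) in cecum, and of all neighbours in the order of the means only these last 2 groups did not overlap.
Across the 8 group means G6pc and Fbp1 correlated with r 0.80 and rho 0.93, a description over groups that share arrays, normalization and the low values of cecum.

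**Figure D1:**
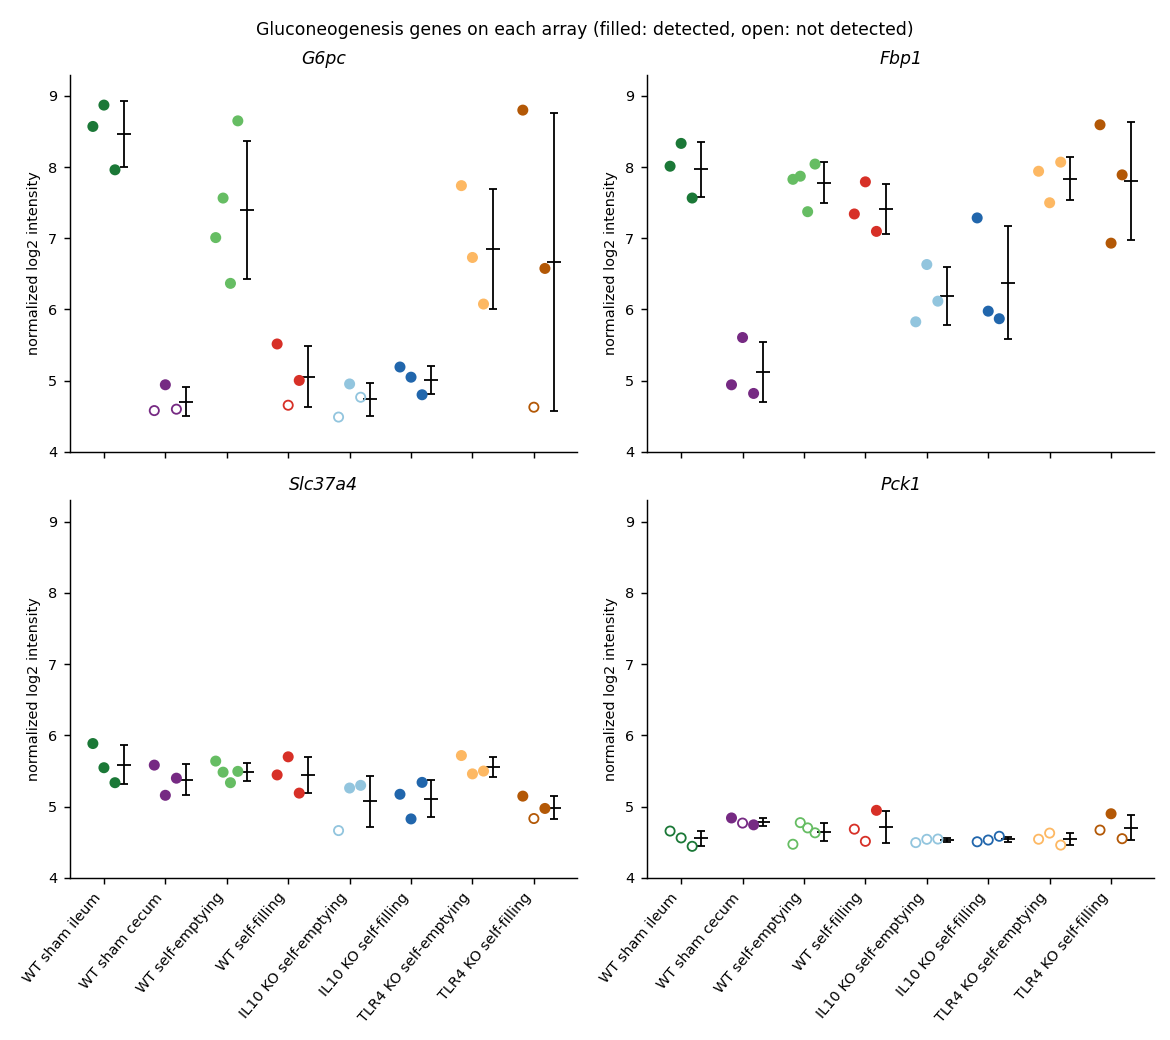
Normalized log2 intensity (vertical axis, same scale in each panel) of the 4 genes on each of 25 arrays, by group (horizontal axis), with the group mean and SD in black and undetected arrays as open points. G6pc is near background in wild type stagnant loops, in both loop types labelled IL10 knockout and in cecum, Fbp1 is lowest in cecum, and Slc37a4 and Pck1 vary little.

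**Figure D2:**
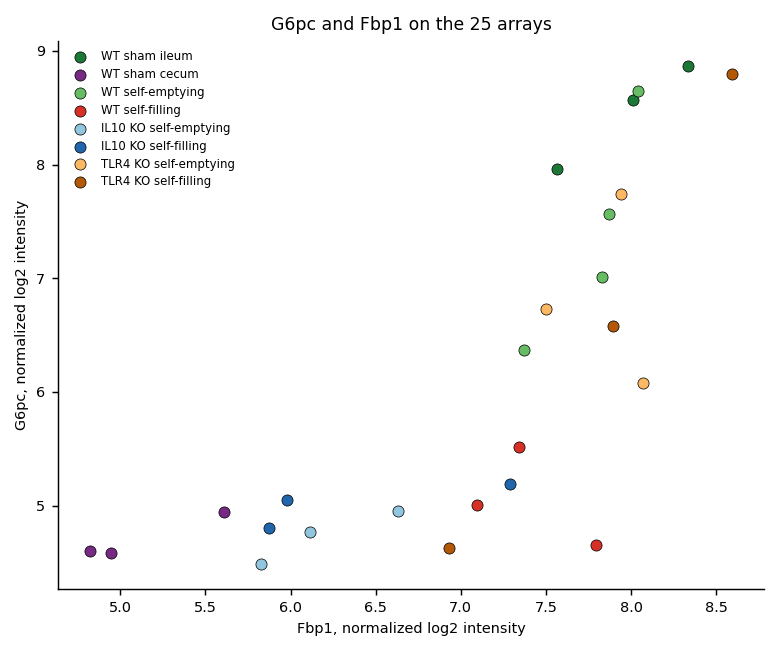
G6pc (vertical axis) against Fbp1 (horizontal axis), both in normalized log2 intensity, 1 point per array, coloured by group. The 3 wild type stagnant loops combine Fbp1 between 7.10 and 7.79 with G6pc between 4.66 and 5.52, and cecum is low for both.

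Slc37a4 had low signal and moved little. It was detected on 23 of 25 arrays between 4.66 and 5.89, and its group means ran from 5.59 in sham ileum to 4.98 in TLR4 knockout stagnant loops. Stagnant TLR4 knockout loops gave 5.15, 4.83 and 4.97, below all 3 draining TLR4 knockout loops at 5.72, 5.46 and 5.50. Draining loops labelled IL10 knockout gave 4.66, 5.26 and 5.30.
Pck1 was detected on 4 of 25 arrays: 2 of cecum, 1 wild type stagnant loop and 1 TLR4 knockout stagnant loop. Its values covered 4.44 to 4.95, an overall span of 0.51, and were near the background on every array. Low expression and a failing probe cannot be told apart here. A difference in Pck1 was not detectable at this signal, and under a stricter detection limit of p under 0.01 on 3 arrays it was not among the genes tested.

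The comparison of sham cecum with sham ileum asks how the members differ between neighbouring bowel segments in unoperated bowel. G6pc fell by 3.76 ± 0.67 (log2, SE, 3 against 3 arrays; 13.6-fold; limma adjusted p = 0.000173) and Fbp1 fell by 2.85 ± 0.38 (7.19-fold; limma adjusted p = 4.66e-06). In both genes every cecum array lay below every ileum array. Pck1 did not overlap either, with cecum the higher, at values near background. Non-overlap is given here and below as a description, without its share over all genes. G6pc was detected on only 1 of the 3 cecum arrays, so its fold is taken against a mean near background, and without background correction the differences were -1.96 (limma adjusted p = 0.000793) for G6pc and -1.45 for Fbp1. Slc37a4 differed by -0.21 ± 0.18 and Pck1 by 0.23 ± 0.12, and neither passed. Thus 0 of 4 rose and 2 of 4 fell, where 16.2% of all genes rose and 11.6% fell. The G6pc call is not free of the selection, which may favour high values in sham ileum. The 9 tested markers of small intestinal enterocytes all fell (their summed level was 66088 to 68613 in ileum and 3315 to 4144 in cecum), and fewer such cells and less RNA per cell cannot be told apart. The 9 large intestinal markers summed to 2788 to 3178 in ileum and 58747 to 69054 in cecum. Goblet cell markers summed to 41000 to 44835 and 50788 to 56227, and smooth muscle markers to 20468 to 28421 and 29519 to 41143. The part of these lists in the result was not tested.
Of 7 tested genes of fructose and glucose use, 5 fell and 1 rose, with a median of -1.60 beside 0.03 over all genes. Khk, which phosphorylates fructose, fell by 2.80, Tkfc, which phosphorylates glyceraldehyde, by 2.54, Slc5a1, the sodium glucose cotransporter, by 1.71 and Slc2a2, the basolateral glucose transporter, by 1.60. Of 8 reversible enzymes of glycolysis, 4 rose and 1 fell. Of 10 opposing glycolytic enzymes 4 rose and 3 fell: Pfkl, a phosphofructokinase, rose by 2.17 and Hk1, a hexokinase, by 1.97, whereas the pyruvate kinase Pklr fell by 1.57. Of 15 genes that bring carbon in, 4 rose and 7 fell, among them Gpd1, which oxidises glycerol-3-phosphate, which fell by 2.81. Of 6 paralogs and partners 4 rose and 1 fell: G6pc3, a broadly expressed paralog of G6pc, rose by 1.17, and Fbp2, a paralog of Fbp1, fell by 0.65. Fbp2 was detected on all 25 arrays, at a mean of 11.92 in sham ileum and 11.27 in cecum. Fbp1 stood at 7.97 and 5.12 there, with a different probe. Of 25 regulators 4 rose and 7 fell, led by the transcription factors Creb3l3, which fell by 3.72, and Hnf4g, which fell by 2.81.

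Draining loops of wild type, compared with sham ileum, address surgery without stasis. No member passed: 0 of 4 rose and 0 of 4 fell in limma (0 of 4 also at an unadjusted p under 0.05), against 0% and 0.00891% of all genes. The unadjusted limma p was under 0.05 for 883 of all 11227 genes. G6pc differed by -1.07 ± 0.63 (log2, SE; 95% interval -2.38 to 0.24) and Fbp1 by -0.19 ± 0.35 (-0.93 to 0.54). Draining loops overlapped sham ileum for both genes, and 0 of the 71 tested pathway genes passed.

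Wild type stagnant loops are described only. Against sham ileum G6pc was lower by 10.6-fold, a log2 difference of -3.41 ± 0.67 (SE), rank 5 from the lowest of 11227 genes, and against draining loops it was lower by 5.06-fold, -2.34 ± 0.63, rank 14. Without background correction these differences were -1.86 and -1.12. Fbp1 differed by -0.56 ± 0.38 and -0.37 ± 0.35, Slc37a4 by -0.14 and -0.04, and Pck1 by 0.16 and 0.07. Against cecum the stagnant loops differed by 0.35 ± 0.67 in G6pc and by 2.29 ± 0.38 in Fbp1, the latter by 1.07 without background correction. Enterocyte marker levels summed to 39591 to 53418 in these loops against 57167 to 63969 in draining loops, and 8 adipocyte markers to 1901 to 2375 against 2300 to 18260. Large intestinal markers summed to 5755 to 8311 against 2021 to 4737, and 6 proliferation markers to 1894 to 2489 against 1044 to 1566. By gene, the mean log2 levels of Car4 (12.41 against 11.33), Aqp4 (9.22 against 7.71), Hsd11b2 (7.69 against 6.57) and Aqp8 (5.14 against 4.91) were higher in stagnant loops. Those of Saa1 (6.82 against 7.89) and Sycn (5.32 against 5.81) were lower. Insl5, Atp12a and Slc26a3 were detected in neither group. The enterocyte, large intestinal and proliferation sums did not overlap between stagnant and draining loops, nor between stagnant loops and sham ileum (66088 to 68613, 2788 to 3178 and 1168 to 1538). Against sham ileum the sums of the adipocyte, goblet cell, hepatocyte, macrophage and ileal enterocyte lists were also lower in stagnant loops without overlap. Sums on the linear scale follow the brightest genes, and genes of these lists differed in direction. The goblet cell list averaged 11.06 in mean log2 in stagnant loops against 10.76 in sham ileum. Its genes Spdef (8.34 against 7.19) and Agr2 (6.95 against 5.60) were higher. Mrc1 of the macrophage list (7.75 against 7.32) and Ttr of the hepatocyte list (7.69 against 6.90) also had higher means. So did Apoa4 of the enterocyte list (11.35 against 9.64, and 10.49 in draining loops), whereas the other tested genes of that list had lower means. The kidney gene Slc34a1, a phosphate transporter, was detected in 3 of 3 stagnant loops (5.21 to 5.56) and in 0 of 7 of the other ileal wild type arrays. The part of these lists in the result was not tested. Among the pathway genes, the coactivator Ppargc1a differed by -1.09 ± 0.24 between stagnant and draining loops, pyruvate carboxylase Pcx by -1.22 ± 0.43, Khk by -0.79 ± 0.33 and the enolase Eno1 by 0.64 ± 0.18. These are examples, and not all are the largest differences of their lists. Aldoc, listed with Eno1, stood at 7.91 in stagnant against 7.02 in draining loops. Txnip, listed with Khk, stood at 10.32 against 11.13.

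Stasis in the knockout groups did not change any of the 4 genes past the test. In loops labelled IL10 knockout 0 of 4 rose and 0 of 4 fell (0 at an unadjusted p under 0.05), where 1.92% of genes rose and 2.2% fell. Here 2298 of all 11227 genes had an unadjusted limma p under 0.05. G6pc differed by 0.28 ± 0.67 (95% interval -1.12 to 1.68) and Fbp1 by 0.19 ± 0.38 (-0.60 to 0.97), with draining loops of that label already near background for G6pc. Among the 15 carbon entry genes Mpc2, a subunit of the mitochondrial pyruvate carrier, fell by 0.71, and of the 25 regulators Ppargc1a fell by 1.05 and the bile acid receptor Nr1h4 rose by 0.61. None of the 31 tested genes of the other 4 lists changed.
In TLR4 knockout loops again 0 of 4 rose and 0 of 4 fell, where 0.0356% and 0.0445% of genes did. G6pc differed by -0.18 ± 0.67 (-1.58 to 1.22) and Fbp1 by -0.03 ± 0.38 (-0.82 to 0.75). Slc37a4 was lower by 0.57 ± 0.18 with no overlap, and reached an unadjusted p of 0.00534 in limma but an adjusted p = 0.318. In this comparison 1014 of all 11227 genes had an unadjusted limma p under 0.05. The stagnant TLR4 knockout array with G6pc at 4.63 also had the lowest summed enterocyte markers of its group, 27680 against 56248 and 56065. Adipocyte markers summed to 2332 to 3431 in stagnant and 5153 to 17651 in draining TLR4 knockout loops. The part of these markers was not tested, and 0 of the 71 tested pathway genes passed in this comparison. Averaged over both knockouts, G6pc differed by 0.05 ± 0.48 (-0.94 to 1.04) and 0 of 4 passed in either direction (0 at an unadjusted p under 0.05), where 1.1% of genes rose and 1.01% fell. For this average 1865 of all 11227 genes had an unadjusted limma p under 0.05. Of the pathway lists Gapdh rose by 0.30, and Sord, the sorbitol dehydrogenase, fell by 0.65 and Ppargc1a by 0.79.
The difference of the 2 stasis effects, IL10 minus TLR4, was 0.46 ± 0.95 (-1.52 to 2.44) for G6pc and 0.61 ± 0.26 for Slc37a4 (limma adjusted p = 0.310). By the adjusted p 0 of 4 passed in either direction, where 0.116% and 0.0534% of genes did, and none of the 71 pathway genes. At an unadjusted limma p under 0.05 it was 1 of 4 members, beside 1515 of all 11227 genes. Set beside the wild type, the stasis difference of G6pc was higher by 2.62 ± 0.92 in IL10-labelled loops and by 2.16 ± 0.92 in TLR4 knockout loops, values that include the wild type stagnant arrays and so carry no test. Without background correction they were 1.21 and 1.21. G6pc was already near background in draining IL10-labelled loops, so a further fall there could hardly be measured. Its values in TLR4 knockout stagnant loops ran from 4.63 to 8.80.

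**Figure D3:**
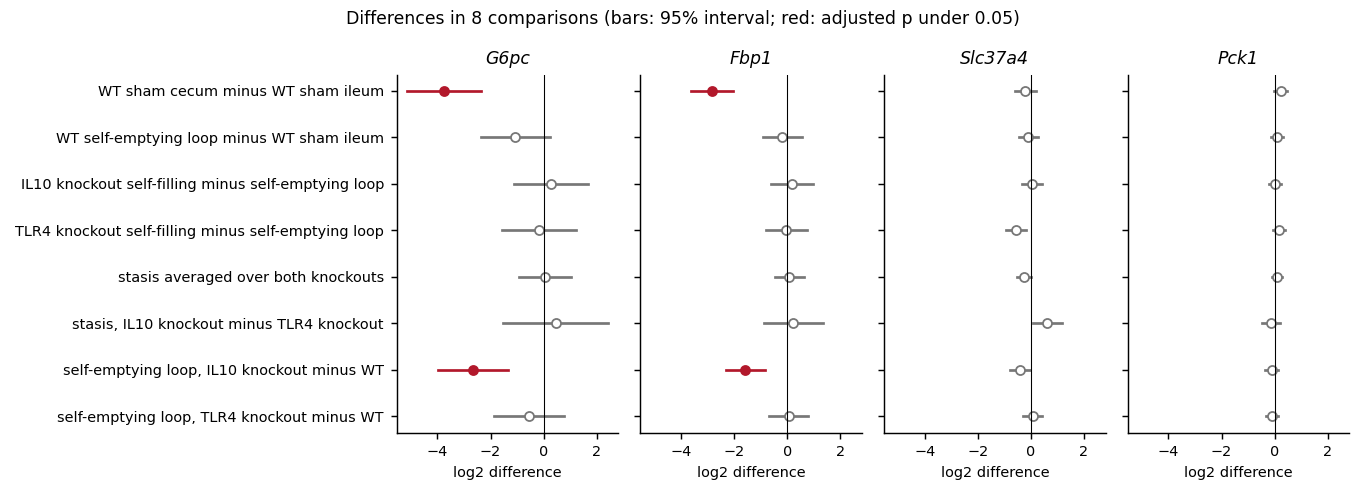
Log2 difference (horizontal axis) of each of the 4 genes in the 8 tested comparisons (rows), with 95% intervals from limma and red for an adjusted p under 0.05. G6pc and Fbp1 are red in cecum against ileum and in draining loops labelled IL10 knockout against wild type, and the other 28 intervals are grey. For G6pc, tests against sham ileum or wild type draining loops are not free of the selection.

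Draining loops labelled IL10 knockout, compared with wild type draining loops, held the second set of member changes. G6pc fell by 2.66 ± 0.63 (log2, SE, 3 against 4 arrays; 6.32-fold; limma adjusted p = 0.0112) and Fbp1 fell by 1.59 ± 0.35 (3.00-fold; limma adjusted p = 0.00775). In both, all arrays labelled IL10 knockout lay below all wild type arrays: for G6pc at most 4.95 against at least 6.37, and for Fbp1 at most 6.63 against at least 7.37. Slc37a4 differed by -0.41 ± 0.17 (limma adjusted p = 0.142), also without overlap, at most 5.30 against at least 5.34. Pck1 differed by -0.12 ± 0.11. So 0 of 4 rose and 2 of 4 fell, where 5.24% of genes rose and 4.31% fell. The G6pc call is not free of the selection, which may favour high values in wild type draining loops. G6pc was detected on only 1 of the 3 arrays labelled IL10 knockout, so its lower mean lies near background, and without background correction the differences were -1.22 for G6pc (limma adjusted p = 0.0452) and -0.92 for Fbp1.
Without replicate 1 of the IL10-labelled draining loops both calls were lost, at -2.54 ± 0.73 for G6pc (limma adjusted p = 0.0527) and -1.40 ± 0.40 for Fbp1 (limma adjusted p = 0.0518). Of the 9 enterocyte markers 4 fell (median -0.68 over the 9, beside 0.02 over all genes), among them trehalase Treh by 2.51 and the brush border protease Mep1a by 1.64. Their summed level was 34227 to 52462 against 57167 to 63969 in wild type, lowest on replicate 1. Smooth muscle markers summed to 41295 on replicate 1, against 17988 and 22258 on replicates 2 and 3 and 17317 to 27230 in wild type. Replicate 1 also had the lowest weight of all arrays, 0.34, in the fit with array weights. The summed level of 9 large intestinal markers was 5283 to 7502 against 2021 to 4737, without overlap, of which 2 rose (Aqp4 by 1.09 and Car4 by 0.95) and 1 fell (Sycn by 1.22). The 6 proliferation markers summed to 2273 to 2859 against 1044 to 1566, also without overlap, and 3 rose (Aurka by 1.10, Plk1 by 1.04 and Top2a by 1.01). The part of these lists in the falls of G6pc and Fbp1 was not tested. The summed level of 8 adipocyte markers ran from 2146 to 5283 against 2300 to 18260, and none of them passed. The 4 tested genes of the hepatocyte list summed to 202 to 432 against 310 to 3839, and none passed. The hepatocyte markers Alb, Apoh, Ahsg, Fgb and Fga were detected on 0 of 25 arrays, as were the kidney markers Slc5a2, Umod and Kap. Of the other kidney markers, Miox was detected on 2 arrays, and Slc34a1 on 14 and was the only gene of its list tested. Non-detection need not mean absence. The enterocyte markers Fabp1 and Fabp2 and the ileal marker Slc10a2 were also detected on 0 of 25 arrays, while Sis was detected on 23 and Fabp6 on 25. Slc34a1 rose by 0.55 ± 0.17 (limma adjusted p = 0.0484), at 4.69 to 5.31 with 2 of 3 arrays detected against 4.43 to 4.59 with 0 of 4 detected.

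Genes around the members also changed in this comparison. Of 8 reversible enzymes, 4 rose and 0 fell (median 0.39 beside 0.02 over all genes): Eno1 by 0.62 ± 0.18 (limma adjusted p = 0.0345), the phosphoglycerate mutase Pgam1 by 0.53, the triosephosphate isomerase Tpi1 by 0.36 and Gapdh by 0.35. Of 10 opposing glycolytic enzymes, 2 rose and 0 fell: Pkm, the pyruvate kinase of proliferating and most other cells, by 0.84 ± 0.19 (limma adjusted p = 0.00963) and the phosphofructokinase Pfkm by 0.60. Of 7 genes of fructose and glucose use, 0 rose and 2 fell: Khk by 1.27 ± 0.33 (limma adjusted p = 0.0194) and Sord by 0.93. Of 15 carbon entry genes, the lactate dehydrogenase Ldha rose by 0.42 and the aspartate aminotransferase Got2 by 0.76, while glutamate dehydrogenase Glud1 fell by 1.06. Of 6 paralogs and partners, H6pd, which oxidises glucose-6-phosphate in the endoplasmic reticulum, rose by 0.81 and Fbp2 fell by 0.60. Of 25 regulators, the coactivator Ppargc1b rose by 0.87, and Cebpa and the insulin receptor Insr fell by 0.67 and 0.65.

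**Figure D4:**
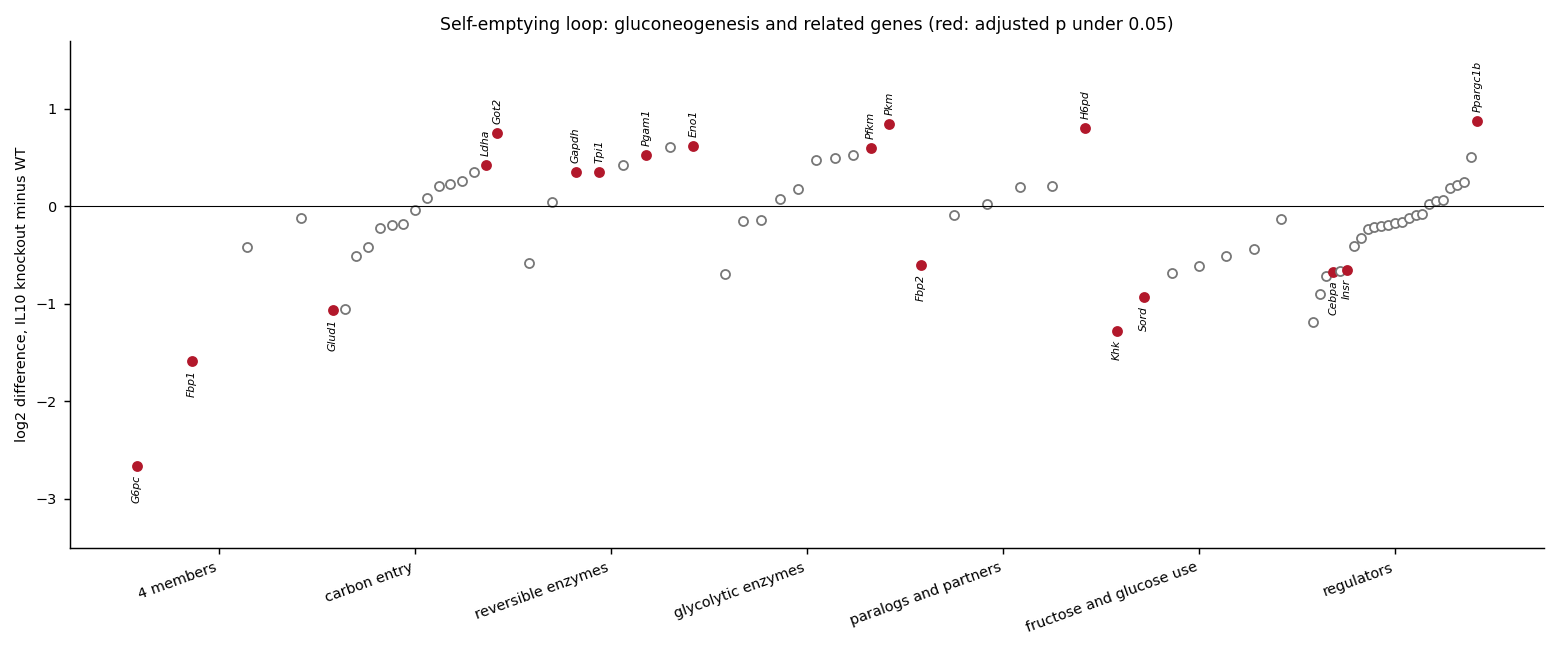
Log2 difference between draining loops labelled IL10 knockout and wild type (vertical axis) for the 4 members and for the tested genes of 6 related lists (horizontal axis), 1 point per gene, red and named where the limma adjusted p was under 0.05. G6pc and Fbp1 are the largest falls drawn, reversible and opposing glycolytic enzymes in red are all above 0, and Khk and Sord are below 0. The G6pc test is not free of the selection.

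In draining TLR4 knockout loops against wild type, G6pc differed by -0.55 ± 0.63 (95% interval -1.86 to 0.76) and Fbp1 by 0.06 ± 0.35 (-0.68 to 0.79), with overlap in both. By limma 0 of 4 rose and 0 of 4 fell (0 at an unadjusted p under 0.05), where 2.07% of genes rose and 3.57% fell. Here 2329 of all 11227 genes had an unadjusted limma p under 0.05. Of the pathway lists, the glucose transporter Slc2a2 rose by 2.38 ± 0.40 (limma adjusted p = 0.00101), the malate dehydrogenases Mdh1 and Mdh2 fell by 0.83 and 0.79, the oxoglutarate carrier Slc25a11 rose by 0.64 and the glucocorticoid receptor Nr3c1 fell by 1.14. Here the genotype and the array code series cannot be told apart.

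The genes whose 8 group means followed G6pc most closely were Zfand6 (r 0.98), Wnk2 (0.97), Snx12 (0.97), Zfp516 (0.96) and Golim4 (0.96). Zfand6 also led over the 25 arrays (r 0.90), with means from 11.27 in sham ileum to 10.62 in cecum. For Fbp1 they were Aqp11 (0.99), Scrn2 (0.98) and Acot4 (0.98), and over the 25 arrays Aqp11 (0.97) was followed by Khk (0.93). For Slc37a4 they were Ces1g (0.94), Rin3 (0.93) and Tfpi (0.93), and for Pck1 Rida (0.95), Rad51c (0.92) and Tsku (0.92), the last over values near background. These are correlations over groups or arrays that share normalization and tissue, given without a test.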

How the data were processed

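Bead signals averaged per probe were deposited by the authors as linear intensity values without normalization, with a deposited detection p-value per probe and array and a bead number, per the file headers. The software behind them was not given in the sources used here. A second deposited table held the authors' log2 values of 17612 probes, which matched the present values of the members within 0.03. Per the submitters' processing notes limma was used, with no version stated.

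Signals were background-corrected by normexp with an offset of 16, quantile-normalized and put on a log2 scale (neqc, limma 3.58.1, R 4.3.3). A filter on detection (p under 0.05, 3 arrays or more) left 15318 probes, and the brightest probe stood for each of 11227 genes. Probe names were updated through a RefSeq gene table of GRCm38.p6, used for names and start sequences only. A mean per group was fitted over all 25 arrays in limma (17 residual and 3.92 prior degrees of freedom), with Benjamini-Hochberg adjustment over 11227 genes. The threshold was an adjusted p of 0.05, and "rose" and "fell" refer to genes under it. The fit was also tested on simulated data with known changes. The number of arrays limits the precision.

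The members and the gene lists were chosen with earlier results of these data known. Named genes are the members, up to 4 passing genes of each list with the largest change, the genes most like each member, Tlr4 and Il10, and up to 3 leading markers of each marker list. Other markers are named after their values were seen. Pathway genes named for wild type stagnant loops, which had no test, are examples outside this rule. The 6 pathway lists held 88 genes, of which 71 were tested, and the 10 marker lists 83, of which 61 were tested. The values of 1 listed gene are not reported here. Title and description numbers differ for 4 samples, and titles were used. Deviations of same-numbered samples did not correlate above 0.1 in all pairs of any comparison, so numbers were not taken to pair samples. The nearest were the description numbers of stagnant and draining loops labelled IL10 knockout (r 0.19, 0.29 and 0.05). With so few arrays per group these correlations cannot exclude pairing. Description numbers rise with the array codes of series MW. The labels do not say whether sham ileum and sham cecum came from the same mice. Alternatives covered background correction, scaling, filters, probes, array weights, the groups fitted, a block and left-out replicates.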

Additional observations from a re-analysis of the deposited data

How the results depend on the processing

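Of 596 member values recomputed under an alternative, 594 kept their side of the threshold and their direction where they had passed, 2 fell below it and 0 reversed, while 37 values that had not passed changed sign. Most of the 596 had not passed and needed only to stay so. The calls of G6pc and Fbp1 in cecum were each kept in 17 of 17 alternatives. Those in draining loops labelled IL10 knockout were each kept in 17 of 18. The number of members past the test in draining loops labelled IL10 knockout against wild type ranged from 0 to 2 when single replicates were left out, and was 0 without replicate 1 of the IL10-labelled loops. Fits with a replicate block by title number gave -2.24 for G6pc and -1.50 for Fbp1 in that comparison and 664 genes past the test in place of 1072, and changed no call of a member. A block by description number gave -2.43 and -1.59 there with 995 genes, 430 in place of 462 genes for stasis labelled IL10 knockout, and also changed no call of a member. The block by title number gave 316 in place of 633 genes for draining TLR4 knockout loops against wild type. It gave 5 in place of 19 for the IL10 minus TLR4 stasis difference. With the block by description number these 2 counts were 428 and 15. Without background correction the folds shrank, with both calls kept in each comparison. Counts over all genes depended more on the settings: 392 to 2034 around 1072 in draining loops labelled IL10 knockout, 164 to 853 around 633 in draining TLR4 knockout loops, 5 to 759 around 462 for stasis labelled IL10 knockout, 0 to 37 around 9 for TLR4 knockout stasis, 42 to 417 around 237 for the average, 1 to 126 around 19 for its difference and 0 to 25 around 1 for draining loops against ileum. Leaving out 1 library moved the count for draining loops labelled IL10 knockout to 459 (replicate 1), 557 (replicate 3) or 542 (wild type replicate 2), that for draining TLR4 knockout loops to 393 (replicate 2), 365 (replicate 3) or 346 (wild type replicate 4), and that for stasis labelled IL10 knockout to 247 and 224 (draining replicates 1 and 2), 104 (stagnant replicate 1) or 759 (stagnant replicate 3). For TLR4 knockout stasis it gave 0 (draining replicate 1) or 37, 3 and 14 (stagnant replicates 1, 2 and 3). With median scaling the median log2 difference over all genes reached up to 0.26 in size. Over all settings of the tested comparisons, 1 median lay over 0.1 from that of the main fit. The causes were not tested. Signal over background limits Pck1, which was near background on every array, and G6pc wherever it was undetected.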
